A study of Mus musculus with 10 samples.

Results

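The genes described here are 9 genes of the uterine glands, namely 3 transcription factors (Foxa2, Foxa1 and Sox9) and 6 secreted products (Prss28, Prss29, Spink1, Ttr, Cxcl15 and Wfdc3). They were chosen by symbol from the 45706 genes counted by mRNA sequencing of whole uterus, and 8 of the 9 passed the filter on low counts, among 25146 genes tested in all. The uteri came from intact adult female mice at gestation day (GD) 3.5, before the embryo attaches. Control mice were Arid1a f/f, that is, both Arid1a alleles carried loxP sites but no Cre was present (n = 5). Mutant mice were Ltf iCre/+ Arid1a f/f (n = 5), in which a Cre recombinase expressed from 1 allele of the lactoferrin gene (Ltf) removes Arid1a, a subunit of the SWI/SNF chromatin remodelling complex, from the endometrial epithelium of mature females. Both genotypes shared the floxed Arid1a alleles and a mixed strain background, and every library was made from 1 uterus. Lactoferrin is also a product of neutrophils, so the driver is not a gland marker, and the deletion covers luminal as well as glandular epithelium.

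Uterine glands are tubes of epithelium that open into the lumen and secrete proteins and cytokines on which implantation in the mouse depends. FOXA2 is a forkhead transcription factor which, in the adult mouse uterus, marks the glandular epithelium, and mice that lack it there are infertile because the glands fail to release leukaemia inhibitory factor (LIF). In the cycling and pregnant uterus, gland products include proteases and protease inhibitors of the uterine fluid, a hormone carrier and chemokines. The comparison of the 2 genotypes asks how these gland genes stand when epithelial Arid1a has been deleted.

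The total was 65351817 to 72702411 counts per control library and 59296537 to 67990486 per mutant library. Levels are given as CPM, the counts of a gene scaled to a library of 1000000, and 3 counts corresponded to 0.0418 to 0.0507 CPM. Arid1a itself, counted over the whole gene and over all cell types of the uterus, was 251, 210, 213, 192 and 197 CPM in control uteri 1 to 5 and 208, 191, 179, 182 and 165 CPM in mutant uteri 1 to 5. The ranges overlapped, and the difference did not pass the test (log2 fold change -0.20, adjusted p = 0.201 by the quasi-likelihood test of edgeR, which gives all adjusted p-values below unless another test is named). Ltf, whose locus carries the Cre, was 2.22 to 11.7 CPM in the controls and 23.6 to 2831 CPM in the mutants (log2 fold change 7.23, adjusted p = 0.00920). In the mutants the epithelial markers stood higher and the neutrophil markers were far higher in uterus 5 than in any other, and both are given below beside the gland genes. No mutant or control library was left out.

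The gland genes with ample counts had lower fitted levels in the mutants, although few of them passed the test. The 6 with counts in every uterus (Foxa2, Sox9, Spink1, Ttr, Cxcl15 and Wfdc3) had log2 fold changes between -2.68 and -1.01, with a median of -1.57 against 0.03 over the 25146 tested genes. Prss28 and Prss29 passed the low-count filter mainly through control uterus 1, which had to give them a negative log2 fold change, so they are described separately. Of the 8 tested genes, 2 passed an adjusted p of 0.05, Foxa2 and Wfdc3, both lower, and 0 were higher. Of all tested genes 9.70% passed, 4.51% as lower and 5.19% as higher. By DESeq2 4 of the 8 were lower and 0 higher, beside 1954 lower and 2108 higher over all genes. For the lists below, counts at an unadjusted p under 0.05 are given without the share over all genes, so nothing is read from them. For 5 of the 8 every mutant uterus lay below every control uterus (Foxa2, Spink1, Ttr, Cxcl15 and Wfdc3), which held for 5.16% of all tested genes, while the reverse held for 5.53% of all genes and for 0 of the 8. The CPM of the 9 genes summed to between 99.8 and 144 in the controls and between 28.7 and 56.3 in the mutants. In RNA of a whole uterus, fewer gland cells and less RNA of these genes per gland cell cannot be told apart.

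**Figure D1:**
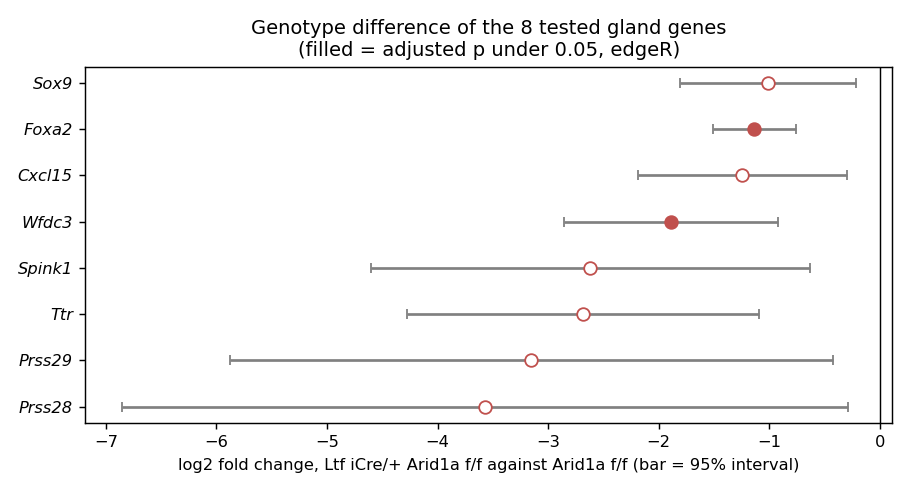
Log2 fold change of the 8 tested gland genes, mutant (Ltf iCre/+ Arid1a f/f) against control (Arid1a f/f) uteri, n = 5 per genotype. Points are edgeR estimates with 95% intervals from their standard errors, not adjusted for the number of genes tested, and filled points have an adjusted p under 0.05. The 6 genes with counts in every uterus lie between -2.68 (Ttr) and -1.01 (Sox9), of which Foxa2 and Wfdc3 are filled; the points of Prss28 and Prss29 rest mainly on control uterus 1, with 43 counts of each.

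Foxa2 (ENSMUSG00000037025, GRCm38 chr2:148042877-148046969, minus strand), the forkhead factor of the glands, gave the most uniform difference. It was 13.6, 13.7, 11.2, 13.8 and 10.6 CPM in control uteri 1 to 5 and 4.48, 4.55, 5.87, 8.58 and 5.15 CPM in mutant uteri 1 to 5. The highest mutant, uterus 4, remained below the lowest control. The means were 12.6 ± 1.56 (SD, n = 5) and 5.73 ± 1.69 CPM, a level 2.19-fold lower in the mutants (log2 fold change -1.13, SE 0.19, adjusted p = 0.00570). An exact permutation test of this gene alone gave p = 0.00794, the smallest that 5 against 5 uteri can give. When any 1 library was left out, the log2 fold change of Foxa2 stayed between -1.33 and -1.06.

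Sox9 (ENSMUSG00000000567, GRCm38 chr11:112782224-112787760, plus strand), an HMG-box transcription factor that is expressed in uterine gland cells, differed less evenly. Its level was 22.7, 18.6, 26.5, 14.7 and 16.0 CPM in the controls and 21.0, 7.06, 4.20, 4.53 and 12.1 CPM in the mutants. Mutants 2 to 5 lay below every control, whereas mutant 1 lay among the controls. The means of 19.7 ± 4.88 and 9.77 ± 7.01 CPM (SD, n = 5 each) corresponded to a log2 fold change of -1.01 (SE 0.41) with an adjusted p of 0.139, which did not pass. Without mutant 1 it was -1.50 with an adjusted p of 0.0200. The log2 ratio of Foxa2 to Sox9 was -0.62 ± 0.42 in the controls and -0.54 ± 1.27 in the mutants (SD, n = 5 each), and this difference between the 2 factors was not detected (exact permutation p = 0.897, also after adjustment over the 2 ratios tested).

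Foxa1 (ENSMUSG00000035451, chromosome 12), the forkhead relative of Foxa2, was at the limit of detection in both genotypes. Control uterus 4 held 1 count and the other controls 0, while mutant uterus 3 held 1 count and mutant uterus 5 held 6. The totals of 1 count in the controls and 7 in the mutants gave a ratio of 7.54, with a 95% counting interval of 0.969 to 340, and with a mean of 0.8 counts per library the gene was not tested. Intervals of this kind cover counting error only. Per kilobase of exon, Foxa2 was 5.31 ± 0.658 CPM in the controls and Foxa1 0.000854 CPM, so of the pair the uterus at this stage contained almost exclusively Foxa2 transcripts.

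Of the other epithelial transcription factors, Elf3 and Grhl2 were called higher in the mutants, and the direction of a further call, Foxa3, is not read. Of 12 such factors, 3 were called higher and 0 lower by edgeR (6 and 0 at an unadjusted p under 0.05, 4 and 0 by DESeq2), with a median log2 fold change of 0.32. Elf3, an ETS factor of epithelia, was called with a log2 fold change of 1.90 (adjusted p = 0.0373) and Grhl2, a grainyhead factor of epithelial junctions, with 0.51 (adjusted p = 0.0464). The third forkhead of the A class, Foxa3, was called with a log2 fold change of 3.41 (adjusted p = 0.0258) at only 0 to 0.0426 CPM in the controls and 0.0726 to 0.275 CPM in the mutants, through which it passed the low-count filter. Its direction is therefore not read, although it enters the count and the median of the list. Each of these 3 calls was lost when single libraries were left out, with an adjusted p of up to 0.0887 for Elf3 (without any 1 control, or mutant 1 or 5), 0.111 for Grhl2 (without any 1 control, or mutant 1, 2 or 4) and 0.0606 for Foxa3 (without control 2 or 3). Sox17, an SRY-related factor also present in uterine epithelium, was not called (log2 fold change -0.22, adjusted p = 0.754). It was 171 to 214 CPM in the controls and 82.2, 253, 201, 251 and 58.4 CPM in mutants 1 to 5, so mutants 1 and 5 lay below every control and the other mutants within or above the control range. Gata2, a zinc finger factor of the same list, was likewise below every control (214 to 333 CPM) in mutants 1 and 5 alone, at 162 and 131 CPM.

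**Figure D2:**
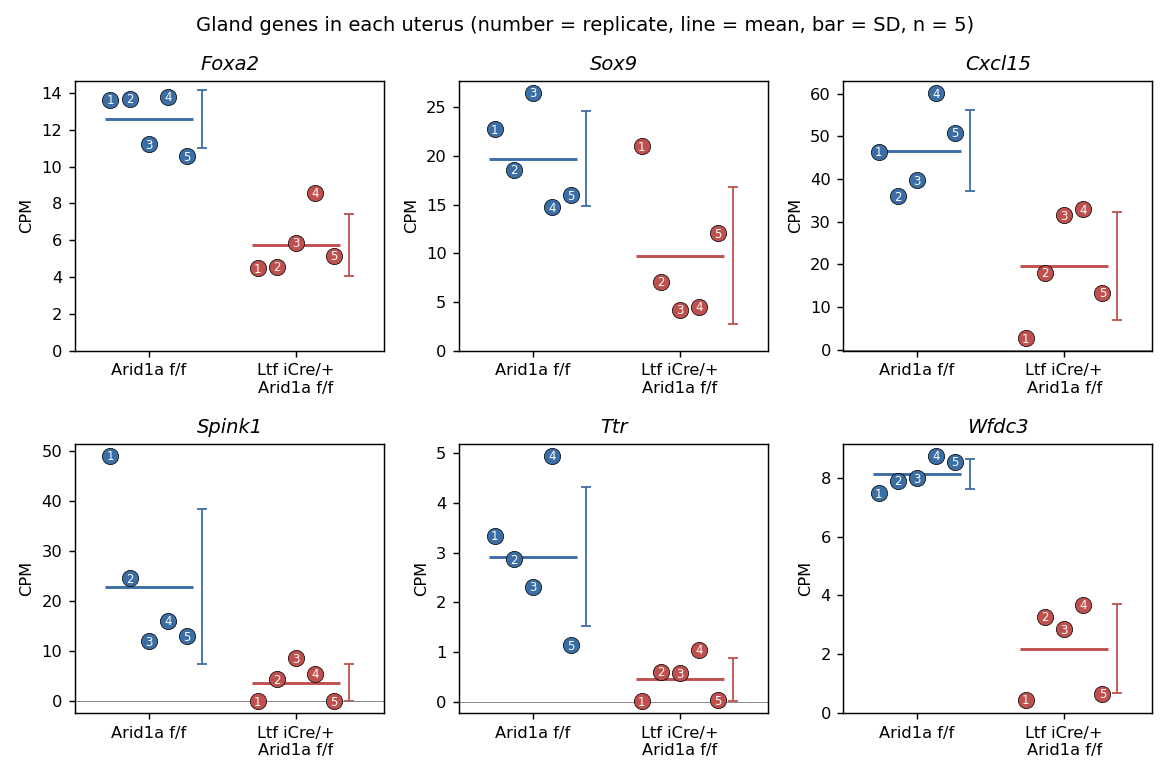
CPM (linear axis from 0) of Foxa2, Sox9, Cxcl15, Spink1, Ttr and Wfdc3 in each of the 5 control and 5 mutant uteri; numbered points are single uteri, lines are means and bars are SD. In 5 panels the mutant points lie below all control points, and in the Sox9 panel mutant 1 (21.0 CPM) lies among the controls; mutants 1 and 5 are the lowest mutants for the 4 secreted products.

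Among the secreted products, Wfdc3 (ENSMUSG00000076434, GRCm38 chr2:164731180-164745931, minus strand), a small protein with a whey acidic protein domain of the kind found in protease inhibitors, was called. In the controls it was almost constant, at 7.47, 7.89, 7.98, 8.73 and 8.54 CPM. In the mutants it was 0.470, 3.28, 2.86, 3.69 and 0.666 CPM. The genotypes did not overlap, and mutants 1 and 5 were the lowest. The means were 8.12 ± 0.513 and 2.19 ± 1.51 CPM (SD, n = 5 each), 3.70-fold lower in the mutants (log2 fold change -1.89, SE 0.49, adjusted p = 0.0353). Without any 1 of the 5 controls the adjusted p rose above 0.05, up to 0.0717, while the log2 fold change stayed between -2.16 and -1.63 over all libraries left out in turn.

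Wfdc3 did not share its direction with the called members of its own family. Of 7 other WFDC genes tested, Wfdc2, an epithelial secretory protein, and Wfdc13 were called higher, and 0 were called lower by edgeR, by DESeq2 or at an unadjusted p under 0.05. Wfdc2 was 109 to 157 CPM in the controls and 135 to 376 CPM in the mutants (log2 fold change 1.15, adjusted p = 0.0138). Wfdc13 was 2.33 to 4.57 CPM in the controls and 9.46, 17.7, 25.7, 32.9 and 2.68 CPM in the mutants (log2 fold change 2.33, adjusted p = 0.0188, up to 0.0561 without control 2 or 3). Mutant 5 stayed within the control range for both of these genes. Wfdc1 was not called (log2 fold change -0.27, adjusted p = 0.647). It was 121 to 136 CPM in the controls and 44.3, 123, 160, 148 and 51.9 CPM in mutants 1 to 5. Mutants 1 and 5 thus lay below every control, and the other mutants within or above the control range. Of the 7 fitted log2 fold changes 5 were positive and 2 negative.

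Cxcl15 (ENSMUSG00000029375, GRCm38 chr5:90794534-90803067, plus strand), a CXC chemokine with the ELR motif that attracts neutrophils, was the most abundant gland product in CPM. Its values were 46.4, 35.9, 39.7, 60.1 and 50.8 CPM in the controls and 2.68, 18.0, 31.5, 32.9 and 13.4 CPM in the mutants. The genotypes did not overlap, yet mutants 3 and 4 came close to control 2. The means were 46.6 ± 9.49 and 19.7 ± 12.7 CPM (SD, n = 5 each), and the log2 fold change of -1.24 (SE 0.48) did not pass by edgeR (adjusted p = 0.127) but passed by DESeq2 (adjusted p = 0.0427). The exact permutation test of this gene alone gave p = 0.00794.

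The other ELR chemokines and their receptors were high in mutant 5. Summed over the 7 tested, they were 0.965 to 1.66 CPM in the controls and 4.81, 0.456, 0.801, 2.59 and 413 CPM in mutants 1 to 5, so mutants 2 and 3 lay below every control. The fitted log2 fold changes (median 4.24) rest largely on mutant 5, since the mutant medians of Cxcl1 (0.196 against 0.432 CPM) and of the receptor Cxcr2 (0.189 against 0.376 CPM) were below those of the controls. Of the 7, 1 was called, Cxcl5, a neutrophil attractant encoded near Cxcl15. It was 0.128 to 0.689 CPM in the controls and 3.18, 0.118, 0.213, 1.66 and 288 CPM in the mutants, so its log2 fold change of 7.54 (adjusted p = 0.0459) came from mutant 5. Without that uterus it was 2.03 with an adjusted p of 0.170, and the call was also lost without any 1 control. Neutrophil markers (S100a8, S100a9, Retnlg, Ly6g and Cxcr2) summed to between 1.76 and 15.0 CPM in the controls, to between 6.77 and 13.7 CPM in mutants 1 to 4 and to 765 CPM in mutant 5. Of these 5 markers 1 was called, Ly6g (log2 fold change 3.82, adjusted p = 0.0294, up to 0.0761 without control 2, 3, 4 or 5). The part of these cells in the chemokine values was not tested.

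Spink1 (ENSMUSG00000024503, chromosome 18), a Kazal-type inhibitor of trypsin-like proteases, was lower in every mutant and nearly lost in a pair of them. The controls held 49.1, 24.6, 12.0, 16.1 and 13.1 CPM. The mutants held 0.0627, 4.44, 8.67, 5.52 and 0.0434 CPM, the values of mutants 1 and 5 being no more than 4 and 3 counts. The means were 23.0 ± 15.4 and 3.75 ± 3.71 CPM (SD, n = 5 each). Because both groups were so widely spread, the log2 fold change of -2.62 (SE 1.01) did not pass (adjusted p = 0.126), although the genotypes did not overlap (exact permutation p = 0.00794 for this gene alone).

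Ttr (ENSMUSG00000061808, chromosome 18), the transthyretin carrier of thyroid hormone and of the retinol-binding protein, followed the same pattern at a lower level. It was 3.34, 2.87, 2.32, 4.94 and 1.13 CPM in the controls and 0.0157, 0.608, 0.572, 1.05 and 0.0289 CPM in the mutants. Mutants 1 and 5 held 1 and 2 counts, and mutant 4 came close to control 5 without reaching it. Its means were 2.92 ± 1.40 and 0.454 ± 0.436 CPM (SD, n = 5 per genotype). The log2 fold change of -2.68 (SE 0.81) missed the threshold by edgeR (adjusted p = 0.0600) and passed it by DESeq2 (adjusted p = 0.0243). Beside it, 5 genes that carry, take up or respond to retinol or thyroid hormone were tested (Rbp4 and its receptor Stra6, albumin, and the thyroid hormone receptors Thra and Thrb). Of these 0 were called by edgeR or by DESeq2 and 1 had an unadjusted p under 0.05 (Thra, lower), with a median log2 fold change of -0.15.

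Prss28 (ENSMUSG00000024171, GRCm38 chr17:25308646-25311876, plus strand) and Prss29 (ENSMUSG00000034039, GRCm38 chr17:25318654-25322684, plus strand) encode the implantation serine proteinases ISP1 and ISP2, which are secreted by the glands around implantation and are neighbours in the tryptase gene cluster. Both were sparse at GD 3.5. Prss28 had 43, 0, 4, 0 and 0 counts in control uteri 1 to 5 and 0, 3, 0, 0 and 0 counts in the mutants. Prss29 had 43, 7, 4, 0 and 0 counts in the controls and 0, 0, 3, 2 and 0 counts in the mutants. Control uterus 1 thus held most counts of both genes, and that uterus also had the highest Spink1.

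The fitted log2 fold changes of -3.57 for Prss28 (SE 1.68, adjusted p = 0.204) and -3.15 for Prss29 (SE 1.39, adjusted p = 0.176) did not pass. Relative to library size, the mutants held 0.0688 of the control level of Prss28 (95% counting interval 0.0137 to 0.214) and 0.0998 of that of Prss29 (0.0312 to 0.248). Without control 1 these ratios were 0.642 (0.0940 to 3.79) and 0.389 (0.106 to 1.21), so a difference was then not detectable at this depth. The log2 ratio of Prss29 to Prss28 was 0.42 ± 0.94 in the controls and 0.19 ± 1.09 in the mutants (SD, n = 5 each; exact permutation p = 0.762, 0.897 after adjustment over the 2 ratios tested), and the sign of this difference turned without control 2 or mutant 2.

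Of 9 other proteases of the tryptase cluster that were tested, 1 was called higher and 0 lower by edgeR and by DESeq2 (3 and 0 at an unadjusted p under 0.05). Prss32 had 0 counts in every control, 186 in mutant 5 and no more than 3 in any other mutant, and was not called. The called gene was the mast cell tryptase gene Tpsab1, at 0 to 0.0426 CPM in the controls and 0.0327 to 0.796 CPM in the mutants (log2 fold change 4.08, adjusted p = 0.0298, up to 0.0719 without control 1, 2, 3 or 5 or mutant 1 or 5). Tpsab1, with at most 3 counts in any control, and Prss32 passed the low-count filter only through the mutants. Nothing is therefore read from their direction. Mast cell markers as a list (Kit, Cpa3, Cma1, Mcpt4, Tpsb2 and Ms4a2) summed to 54.7 to 95.1 CPM in the controls and 40.8 to 122 CPM in the mutants, and 0 of 6 were called by edgeR, by DESeq2 or at an unadjusted p under 0.05.

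Promoter sequences are shown for the proteinase pair, whose counts appeared in the same control uterus, and for Cxcl15 and Wfdc3, which were lower in every mutant. Each run is the 250 bases before the RefSeq transcription start on build GRCm38.p6, read 5′ to 3′ along the gene's strand. Capitals mark matches, on either strand, to 6 short motifs. The forkhead core was searched as TGTTTAC and, with another second base, as TATTTAC or, with another sixth base, as TGTTTGC. The SOX core was searched as ACAAAG, which reads CTTTGT when it lies on the other strand, and also as AACAAT, and the last motif was the TATA box core TATAAA. The Prss28 window is chr17:25308396-25308645 on the plus strand, the Prss29 window chr17:25318404-25318653 on the plus strand, the Cxcl15 window chr5:90794284-90794533 on the plus strand and the Wfdc3 window chr2:164743268-164743517 on the minus strand. The RefSeq start of Wfdc3 lies inside the longer span that the Ensembl gene model covers.
Prss28: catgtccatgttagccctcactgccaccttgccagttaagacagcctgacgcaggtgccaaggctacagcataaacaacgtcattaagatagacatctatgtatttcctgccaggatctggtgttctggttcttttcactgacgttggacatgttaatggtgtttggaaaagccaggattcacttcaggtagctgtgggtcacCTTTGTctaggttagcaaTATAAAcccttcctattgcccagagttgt
Prss29: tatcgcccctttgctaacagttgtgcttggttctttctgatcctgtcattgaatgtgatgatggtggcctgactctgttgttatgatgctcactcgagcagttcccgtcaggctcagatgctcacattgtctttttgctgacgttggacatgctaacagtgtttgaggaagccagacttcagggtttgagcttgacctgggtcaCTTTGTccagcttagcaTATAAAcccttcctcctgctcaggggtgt
Cxcl15: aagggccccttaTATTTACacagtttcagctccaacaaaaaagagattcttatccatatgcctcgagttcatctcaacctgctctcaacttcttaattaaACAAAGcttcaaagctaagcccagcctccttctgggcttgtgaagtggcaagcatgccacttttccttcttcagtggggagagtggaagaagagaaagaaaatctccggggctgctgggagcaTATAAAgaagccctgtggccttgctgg
Wfdc3: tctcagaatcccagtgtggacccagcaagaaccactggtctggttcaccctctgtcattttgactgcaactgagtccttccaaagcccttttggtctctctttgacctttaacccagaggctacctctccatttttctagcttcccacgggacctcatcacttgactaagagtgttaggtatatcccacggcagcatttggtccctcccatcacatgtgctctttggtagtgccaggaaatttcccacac

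The proteinase promoters resembled each other in the order and spacing of their matches. Both held TATAAA with its first base 29 bases before the start and a SOX core on the minus strand just upstream of it, 47 bases before the start in Prss28 and 46 in Prss29. Aligned end to end, the upstream windows were identical at 153 of 255 columns (60%), and the transcripts at 721 of 1211 columns (59.5%). The transcripts had no run of 50 bases, the length of a read, in common, so reads of the pair were separable. The Cxcl15 window held TATTTAC 238 bases, ACAAAG 150 bases and TATAAA 27 bases before the start, and the Wfdc3 window held none of the letters searched. Over 32851 promoter windows of 300 bases, 11.2% held any of the forkhead cores, 27% any of the SOX cores and 13.6% TATAAA, and of the single cores matched here 3.04% held TATTTAC and 18.7% ACAAAG. A match says nothing of binding.

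In order of level per kilobase of exon, the gland genes of the control uterus were Spink1 (31.5 ± 21.2 CPM per kb), Cxcl15 (21.9 ± 4.46), Foxa2 (5.31 ± 0.658), Sox9 (4.77 ± 1.18), Wfdc3 (3.21 ± 0.203), Ttr (2.46 ± 1.18), Prss29 (0.129 ± 0.216), Prss28 (0.109 ± 0.216) and Foxa1. Neighbours in this order overlapped between uteri except at the steps from Cxcl15 to Foxa2, from Sox9 to Wfdc3 and from Ttr to Prss29. In the mutants Cxcl15 (9.25 ± 5.97 CPM per kb) stood before Spink1 (5.14 ± 5.09), followed by Foxa2 (2.42 ± 0.714), Sox9 (2.36 ± 1.70), Wfdc3 (0.867 ± 0.598) and Ttr (0.383 ± 0.368), and all neighbours overlapped. The change of order between Spink1 and Cxcl15 was therefore within the spread in both genotypes.

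In 4 of the 6 secreted products the mutant uteri were spread more widely than the controls. The highest mutant exceeded the lowest 200-fold for Spink1, 66.7-fold for Ttr, 12.3-fold for Cxcl15 and 7.84-fold for Wfdc3, compared with 4.10-fold, 4.36-fold, 1.67-fold and 1.17-fold among the controls. Of the factors, Sox9 spread 4.99-fold among the mutants and 1.80-fold among the controls, and Foxa2 1.91-fold and 1.31-fold. The counts of Prss28 and Prss29 ranged more widely in the controls, from 0 to 43, than in the mutants, from 0 to 3. The coefficient of variation of Wfdc3 was 6.32% in the controls and 69.0% in the mutants, that of Sox9 24.7% and 71.8%, and that of Foxa2 12.4% and 29.5%. These spreads are given as descriptions and were not tested.

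Mutants 1 and 5 accounted for the low ends. Their log2 CPM minus the control mean was -7.74 and -8.08 for Spink1, -5.87 and -5.50 for Ttr, -4.02 and -3.55 for Wfdc3 and -4.08 and -1.78 for Cxcl15. In mutants 2 to 4 the same differences were between -2.15 and -0.48. Sox9 had the reverse order, with mutants 1 and 5 highest among the mutants (differences of 0.12 and -0.67) and mutants 3 and 4 lowest (-2.19 and -2.08). For Foxa2 the difference was between -1.47 and -0.54 in every mutant, at -1.47 and -1.27 in mutants 1 and 5.

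**Figure D3:**
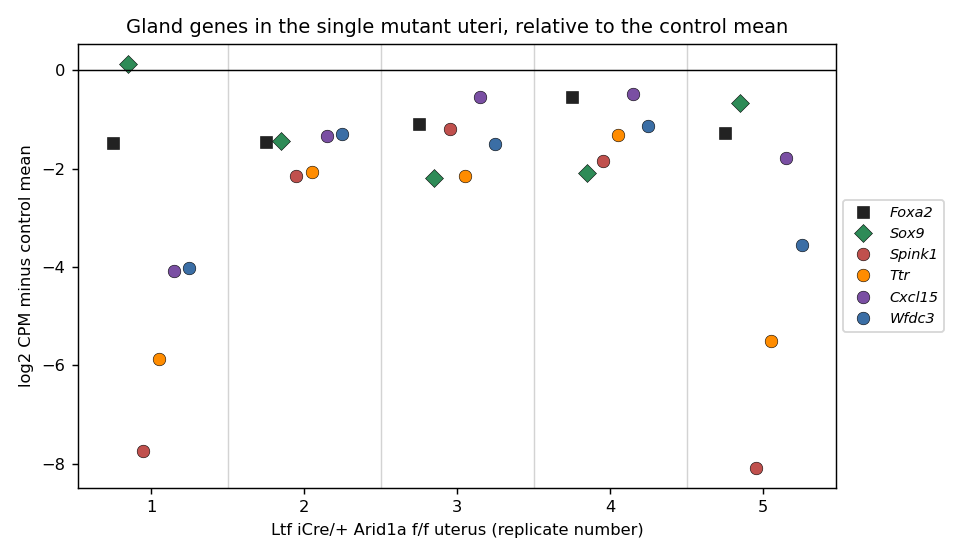
Log2 CPM of 6 gland genes in each of the 5 mutant uteri minus the mean log2 CPM of the 5 control uteri; squares are Foxa2, diamonds Sox9 and circles the secreted products, and 0 marks the control mean. Mutants 1 and 5 have the lowest secreted products, down to -8.08 for Spink1, and the Sox9 values nearest to 0, while Foxa2 lies between -1.47 and -0.54 in every uterus.

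Most markers of the epithelium as a whole were not lower in the mutants. Of 10 epithelial markers (among them keratins, claudins, Cdh1 and Epcam) 6 were called higher and 0 lower by edgeR (8 and 0 at an unadjusted p under 0.05, 7 and 0 by DESeq2), and their summed level was 862 to 1148 CPM in the controls and 1232 to 2342 CPM in the mutants, highest in mutants 1 and 5. Krt7, a keratin of simple epithelia, was called with a log2 fold change of 1.83 (adjusted p = 0.0140) and Krt8, another keratin of simple epithelia, with 0.87 (adjusted p = 0.0220, up to 0.0618 without control 2, 3 or 5). Epcam, an adhesion protein of epithelia, was called with 1.19 (adjusted p = 0.0370, up to 0.0917 without any 1 control or mutant 1 or 5) and Cldn7, a tight junction protein, with 1.10 (adjusted p = 0.0184, 0.0546 without control 3). Part of the Krt8 sequence is shared with a pseudogene (26.9% of its runs of 50 bases), so its count is less certain. Cldn3, another claudin, was not called (log2 fold change -0.30, adjusted p = 0.558), and at 78.7 and 59.2 CPM mutants 1 and 5 lay below all controls (121 to 186 CPM), while mutants 2 to 4 held 155 to 187 CPM. Among the mutants Cldn4 was lowest in uterus 1 (22.0 CPM, within the control range) and Krt18 in uterus 5 (127 CPM, also within it), and neither was called.

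Of 3 markers of the luminal epithelium, which faces the embryo, 2 were called higher. Gabrp, a GABA receptor subunit, had a log2 fold change of 4.44 (adjusted p = 0.0200, up to 0.0569 without control 2, 3 or 4) and Wnt7a, a luminal WNT ligand, of 1.64 (adjusted p = 0.00554). Lpar3, a receptor for lysophosphatidic acid, differed in the other direction without passing (log2 fold change -1.19, adjusted p = 0.113), its 5 mutant values of 6.44 to 41.9 CPM lying below all controls (42.1 to 60.7 CPM) and being lowest in mutants 1 and 5.

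Set against these epithelial markers of the same library, 6 gland genes were lower in all mutants. The log2 CPM of each gland gene minus the mean log2 CPM of the 10 markers differed, mutant minus control, by -1.85 for Foxa2, -1.93 for Sox9, -4.88 for Spink1, -4.06 for Ttr, -2.33 for Cxcl15 and -2.98 for Wfdc3. For these 6 genes every mutant lay below every control (exact permutation p = 0.00794 each, 0.0106 after adjustment over the 8 genes). The mean log2 CPM of the markers was itself higher in every mutant than in every control. Foxa2, Spink1, Ttr, Cxcl15 and Wfdc3 did not overlap before the subtraction. Their separation and p-values therefore had to follow and add no evidence. Only for Sox9, which overlapped before it, could the test have come out otherwise. Its separation nevertheless came from the markers. Sox9 in mutant 1 lay among the controls at 21.0 CPM. It fell below them only because the mean log2 CPM of the markers was highest in that uterus (7.45). The test of Sox9 therefore does not show a lower Sox9 level in mutant 1. For all 6 genes the differences were larger than the log2 fold changes. Prss28 and Prss29 (differences of -1.60 and -1.83) overlapped and did not pass (exact permutation test, adjusted p = 0.119 and 0.0816), and in uteri with 0 counts their values reflect only the prior count and the markers.

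**Figure D4:**
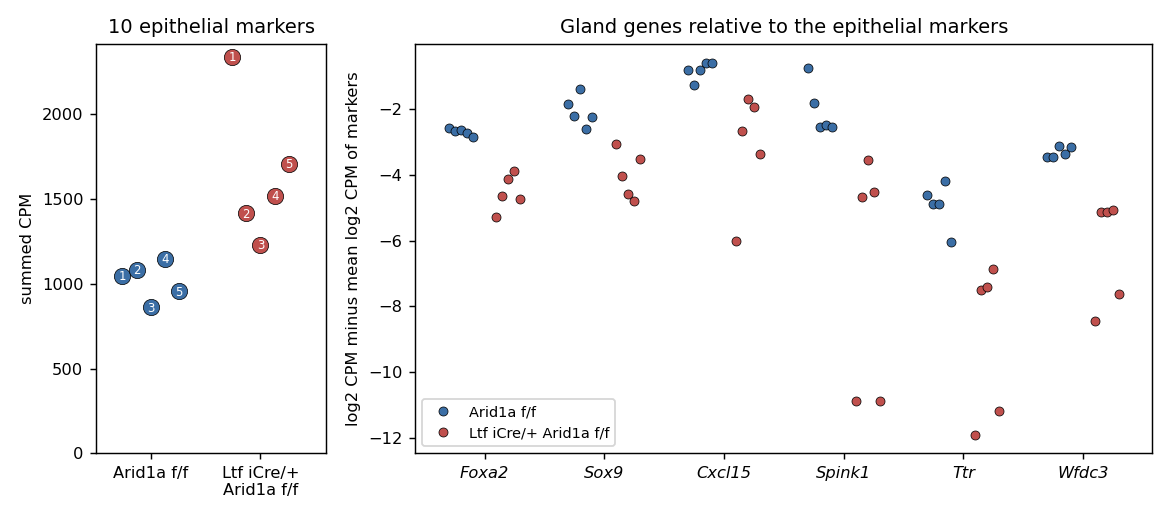
Left, summed CPM of 10 epithelial markers in each uterus (numbered points; axis from 0); right, log2 CPM of 6 gland genes minus the mean log2 CPM of those markers in the same uterus, 5 control (blue) and 5 mutant (red) uteri. The marker sums are 862 to 1148 CPM in the controls and 1232 to 2342 CPM in the mutants, and in the right panel the red points lie below the blue points for all 6 genes.

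Genes that act in gland formation did not share the direction of the gland products. Of 14 such genes 5 were called higher and 0 lower by edgeR (6 and 1 at an unadjusted p under 0.05, also 6 and 1 by DESeq2), with a median log2 fold change of 0.14. The 5 include Cdh1 and Wnt7a, which are also counted among the epithelial and the luminal markers above. Lgr5, a receptor that marks gland progenitor and other stem cells, was 1.29 to 2.38 CPM in the controls and 27.0, 14.7, 5.12, 5.81 and 30.2 CPM in the mutants (log2 fold change 3.24, adjusted p = 0.00374). Msx2, a homeobox factor, had a log2 fold change of 2.50 (adjusted p = 0.00523) and Wnt4, a WNT ligand of the endometrium, of 2.21 (adjusted p = 0.0288, up to 0.0775 without control 2, 3, 4 or 5). Both were highest in mutants 1 and 5, as was Lgr5.

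Lef1, the WNT-responsive transcription factor of the same list, was among the genes with low values in mutants 1 and 5. It was 70.0, 51.2, 62.4, 54.9 and 51.8 CPM in the controls and 5.97, 33.8, 34.0, 37.9 and 11.5 CPM in the mutants. The genotypes did not overlap and mutants 1 and 5 were the lowest, but the log2 fold change of -1.24 did not pass by edgeR (adjusted p = 0.0833). Wnt11, a WNT ligand, was 13.6 to 22.9 CPM in the controls and 0.941, 33.9, 29.4, 24.7 and 0.622 CPM in mutants 1 to 5. The other mutants lay above every control, and Wnt11 was not called (log2 fold change -0.13, adjusted p = 0.948). Among the hormone receptors and HOX factors of the list, Esr1, Pgr, Hoxa10 and Hoxa11 were not called (log2 fold changes -0.25, 0.11, -0.39 and -0.43). Mutants 1 and 5 were the lowest for Hoxa10 (212 and 316 CPM against 470 to 541 CPM in the controls) and for Hoxa11 (147 and 160 CPM against 277 to 347 CPM).

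Lif, the cytokine that the glands release for implantation, was 11.2, 10.7, 13.0, 9.57 and 6.23 CPM in the controls and 6.01, 4.28, 2.88, 3.31 and 17.4 CPM in the mutants. Mutants 1 to 4 lay below every control and mutant 5 above every control. Over all uteri the log2 fold change of -0.58 did not pass (adjusted p = 0.469), and without mutant 5 it was -1.30 with an adjusted p of 0.0129. Mutant 5 is the uterus with 765 CPM of neutrophil markers, and the part of those cells in its Lif level was not tested. Of the 5 genes of the LIF signal, Il6st, the signalling receptor gp130, was called lower, at 826 to 1102 CPM in the controls and 445 to 604 CPM in the mutants (log2 fold change -0.86, adjusted p = 0.00185), while Lifr, Stat3 and Socs3 were not called.

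**Figure D5:**
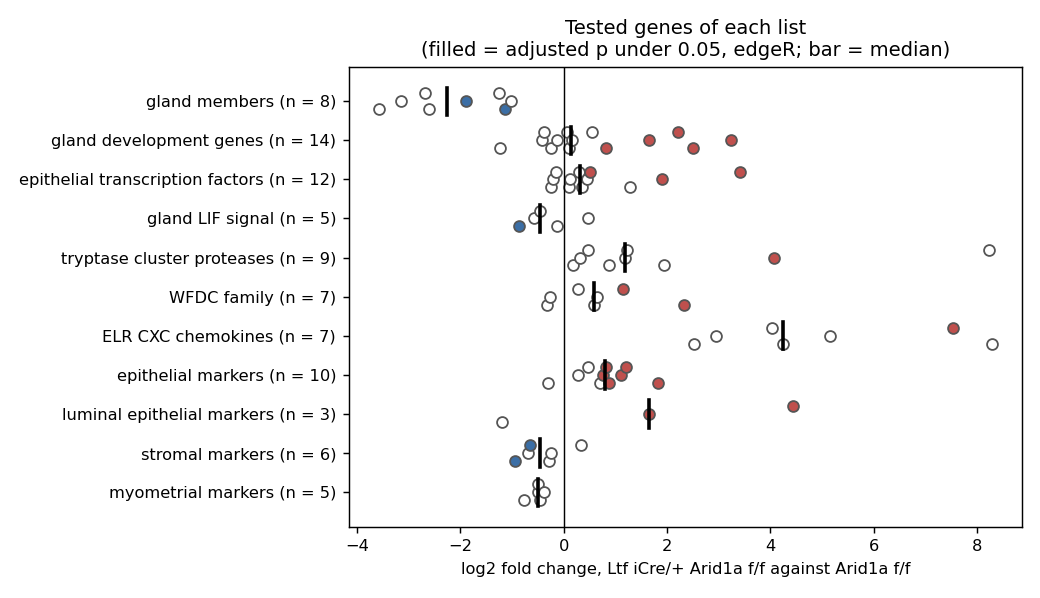
Log2 fold changes (mutant against control, n = 5 each) of the tested genes in each of 11 gene lists; every point is a gene, filled points have an adjusted p under 0.05 (red higher, blue lower) and black bars are list medians. The gland genes have the lowest median of the lists drawn (-2.25, or -1.57 without Prss28 and Prss29), while the medians of the epithelial and luminal markers are 0.79 and 1.64.

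Cells other than epithelium were described with marker lists. Of 6 stromal markers 2 were called lower, Vim (log2 fold change -0.94, adjusted p = 0.0139) and Dcn (log2 fold change -0.65, adjusted p = 0.0109), and the 6 summed to 11151 to 16260 CPM in the controls and 9306 to 14643 CPM in the mutants. Their mean log2 CPM did not overlap, at 10.05 to 10.30 in the controls and 9.47 to 9.98 in the mutants. Pdgfra was also below every control in all mutants without passing (log2 fold change -0.70, adjusted p = 0.0735). Only Col1a1 had a positive log2 fold change (0.33). Of 5 myometrial markers 0 were called by edgeR and 1 was lower by DESeq2, as 1 was at an unadjusted p under 0.05 (median -0.50). Of 5 leukocyte markers 0 were called by edgeR, 1 was higher by DESeq2 and 2 at an unadjusted p under 0.05 (median 0.44). The leukocyte markers summed to 167 to 268 CPM in the controls and 200 to 561 CPM in the mutants, highest in mutant 5. The parts of these cells in the gland gene values were not tested.

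Several gland products are also made by other organs, so markers of those organs were read as well. Of 7 pancreas markers 3 were tested. Ctrb1 and Gcg had 0 counts in all 10 uteri, and Ins2 and Amy2b no more than 1 count in any. Pnlip had a mean of 8.6 counts (0.129 CPM in the controls and 0.133 CPM in the mutants) and was not called. The 7 summed to 3.62 to 6.79 CPM in the controls and 2.82 to 7.25 CPM in the mutants, most of it from Cela1, which was not called (log2 fold change -0.02). The 5 liver markers, of which 3 were tested, summed to no more than 0.548 CPM in any uterus. The pancreatic carboxypeptidase gene Cpa1 was nevertheless called lower, from 0.168 to 1.12 CPM in the controls to 0 to 0.0676 CPM in the mutants (log2 fold change -4.50, adjusted p = 0.0106), and so was the liver gene Serpina1a at a mean of 4.3 counts (log2 fold change -4.64, adjusted p = 0.0292), of whose runs of 50 bases 57.6% are shared with paralogs. The call of Serpina1a was lost without control 3, 4 or 5 or without any 1 mutant (adjusted p up to 0.0665). Cpa1 and Serpina1a passed the low-count filter only through the controls, so nothing is read from their direction. The part of pancreas or liver cells in the gland gene values was not tested.

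Ovgp1, the oviductal glycoprotein gene, was 30.0, 18.3, 13.5, 20.6 and 16.3 CPM in the controls and 1.72, 7.11, 5.62, 5.42 and 1.43 CPM in the mutants, again lowest in mutants 1 and 5 (log2 fold change -2.21, adjusted p = 0.0106). It overlaps Gm42890 on the same strand, and 26.6% of its runs of 50 bases are shared with that transcript, so its count is less certain. Foxj1, which marks the ciliated cells of the oviduct, was 0.454 to 1.04 CPM in the controls and 0.533 to 0.736 CPM in the mutants (log2 fold change -0.16, adjusted p = 0.753). The blastocyst markers Pou5f1, Nanog and Cdx2 summed to no more than 0.265 CPM in any uterus, and 0 of the 2 tested were called by edgeR, by DESeq2 or at an unadjusted p under 0.05.

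The genes whose levels followed a gland gene most closely were sought among 14585 genes with a mean of at least 100 counts, by Pearson correlation of log2 CPM after the mean of each genotype was removed, over the 10 uteri. Mutants 1 and 5 had the lowest secreted products, so for Spink1, Ttr and Wfdc3 these values describe mainly those uteri. For Cxcl15 mutant 1 lay farthest below the rest, and for Sox9 mutants 1 and 5 were the highest mutants. For Foxa2 mutant 4 lay above the other mutants (log2 CPM minus the control mean of -0.54 against -1.47 to -1.09). Closest to Wfdc3 were Pga5 (0.99), Caprin2 and Kcnc4. Closest to Spink1 were Slc29a1 (0.99), Fam189a2 and Fance, and closest to Ttr were Zbtb46 (0.98), Cpne5 and Ihh (0.97), the last encoding Indian hedgehog of the luminal epithelium. Cxcl15 was followed by Ptch1 (0.98), the hedgehog receptor and target, then by Tex9 and Snord123. Sox9 was followed by Scaf11 (0.996), Rps6ka3 and Zdhhc5, and Foxa2 by Zfp414 (0.97), Kcnh1 (0.95) and 1 gene without a symbol. Of these genes, Ptch1 (log2 fold change -0.87, adjusted p = 0.0462), Zbtb46 (-0.60, adjusted p = 0.0109) and Kcnh1 (-2.71, adjusted p = 0.00221) were also called lower in the mutants.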

How the data were processed

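Uterine RNA of 5 Arid1a f/f and 5 Ltf iCre/+ Arid1a f/f mice was read as paired ends of 50 bp after mRNA selection. In the table that the authors deposited, values are raw counts per gene for 45706 Ensembl identifiers with neither normalization nor a low-count filter. Per the submitters' processing notes, reads were processed with cutadapt 1.18, Trim Galore 0.6.4, FastQC 0.11.9 and STAR 2.7.3a on GRCm38. Neither the annotation release nor the strand used in counting is given in the sources used here, so reads of overlapping antisense genes were not separable. Symbols were looked up in GENCODE for GRCm38 (45143 identifiers matched). Promoter windows came from RefSeq (GRCm38.p6) and were read for 6 of the 9 gland genes. Windows on chromosome 18, which holds Spink1 and Ttr, were left out of the search, and Sox9 had no window under its symbol.

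Genes averaging 1 count or more in the 10 libraries were fitted in R 4.3.3 with edgeR 4.0.16 (TMM, quasi-likelihood test, genotype as the only factor, Benjamini-Hochberg over 25146 genes, threshold 0.05), of which 2438 were called. CPM used TMM library sizes, and log2 CPM a prior count of 2. Exact permutation tests were two-sided over 252 arrangements of uteri. The study's own filter was used, while its test, DESeq2 (here version 1.42.0), served as an alternative beside other scalings and filters, a replicate block and leaving out each library. Scripts were tested on simulated data. Counts of same-genotype libraries were all too different for duplicates (the lowest chi-square per gene was 33.3).

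The gland genes and the gene lists were chosen with earlier results of these data known, and the lists were therefore counted and not tested. In the list of luminal markers 1 gene is not reported here and enters none of the list's values. From each list, called genes were named up to 4 by size of change, and Cdh1 in addition because it is in more than 1 list. Lpar3, Lef1, further uncalled members, and the individual markers of other organs were named after their values were seen.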

Additional observations from a re-analysis of the deposited data

Results flagged for a closer look

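Dixon's test for a value far from the rest of its group was applied to the CPM of the 9 gland genes in each genotype, 18 groups of 5 uteri in all. Its chance rate of about 1 in 20 holds for normally distributed values, not for groups that are mostly 0. The test marked 5 groups, all of the 3 sparsest genes. For Foxa1 in the controls and Prss28 in the mutants all uteri but 1 held 0 counts, so those marks were fixed beforehand. Prss28 and Prss29 both stood at 0.601 CPM in control uterus 1, with 43 counts each, where the other controls held at most 4 counts of Prss28 and 7 of Prss29. Prss28 stood at 0.0507 CPM in mutant uterus 2, which held the 3 counts of that gene among the mutants. Foxa1 stood at 0.0868 CPM (6 counts) in mutant uterus 5 and at 0.0142 CPM (1 count) in control uterus 4. Only the values of control uterus 1 and of mutant uterus 5 were above 3 counts. No group of Foxa2, Sox9, Spink1, Ttr, Cxcl15 or Wfdc3 was marked.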

How the results depend on the processing

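Over normalization by RLE or by total counts, DESeq2, no low-count filter, the stricter filter of edgeR, the replicate block and each library left out, the Foxa2 log2 fold change stayed called in all 16 alternatives and the signs of the log2 fold changes of the 6 gland genes with counts in every uterus turned in none of them. DESeq2 called 4 gland genes lower (Foxa2, Wfdc3, Ttr and Cxcl15, with a Ttr log2 fold change of -2.70 and a Cxcl15 log2 fold change of -1.25) and 4062 genes over all, 2108 higher and 1954 lower, against 2438, 1305 and 1133 by edgeR. With libraries left out in turn, 1 to 3 gland genes were called lower, 1204 to 2381 genes over all, 594 to 1296 higher and 610 to 1085 lower, fewest without control 2. The Wfdc3 log2 fold change ranged from -2.16 to -1.63 and lost its call without any 1 control. The Sox9 log2 fold change ranged from -1.50 to -0.82 and passed without mutant 1. For Prss29 relative to the epithelial markers the range was -2.28 to -1.14, and it passed without control 4 (-2.28) or control 5 (-2.22), both of which held 0 counts of the gene, so nothing is read from this. The difference of the Foxa2 to Sox9 log2 ratio ranged from -0.28 to 0.51 and turned without control 3 (-0.07), mutant 3 (-0.17) or mutant 4 (-0.28), and that of the Prss29 to Prss28 log2 ratio ranged from -0.53 to 0.19 and turned without control 2 (0.19) or mutant 2 (0.18). The causes of these changes were not tested beyond the smaller number of libraries.

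The labels give both genotypes the replicate numbers 1 to 5, but same-numbered uteri did not deviate together (correlations between -0.16 and 0.22, and 1 of 5 controls matched its own number best), so the numbers name uteri and do not pair them. With the replicate block, 845 genes were called higher (genes called over all genes, higher), and the Ttr log2 fold change was -3.22 and passed (adjusted p = 0.0423). Paired by number, the differences relative to the epithelial markers kept their values (Foxa2 -1.85, Sox9 -1.93, Spink1 -4.88, Ttr -4.06, Cxcl15 -2.33 and Wfdc3 -2.98), but an exact permutation test by sign flips of 5 pairs cannot go below p = 0.0625 (0.0833 adjusted), so it could not pass. The Foxa2 to Foxa1 ratio was not run, because Foxa1 fell below the low-count filter. Depth limits Foxa1, Prss28 and Prss29, which held 0 to 7 counts in all libraries but control 1.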
